A study of Homo sapiens with 10 samples.

Results

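Viral restriction factors are cellular proteins that block steps of virus replication, and their genes are among those that cells switch on in response to interferon. The 10 genes described here were taken by symbol from the deposited tables of 23245 genes each, and all 10 were found: BST2, SAMD9, SAMD9L, SAMHD1, APOBEC3B, APOBEC3F, APOBEC3G, IFITM1, IFITM2 and IFITM3. The study compared cells with and without PcTF, a synthetic transcription factor that joins the chromodomain of CBX8, which binds the silencing mark H3K27me3, to the fluorescent protein mCherry and the VP64 activation domain. RNA was sequenced from 3 established cell lines, the osteosarcoma line U-2 OS, the neuroblastoma line SK-N-SH and the leukaemia line K562, with 1 library of PcTF cells and 1 of mock cells per line. PcTF cells received 2 µg of a plasmid that expresses PcTF constitutively and mock cells the transfection vehicle without plasmid. They were collected 48 h later (K562) or up to 96 h later (the other lines). In each line, PcTF and the uptake of plasmid DNA therefore cannot be told apart. A further table compared doxycycline-treated stable lines, U2OS-PcTF (KAH126, 2 libraries) and U2OS-ΔTF (KAH132, 1 library), after 1 µg/mL doxycycline for 96 h. Both are isogenic U-2 OS lines with a chromosomal transgene under TetR repression, and ΔTF is the truncated protein that lacks the histone-binding domain. Not every transfected cell carried the fluorescent protein and no sorting was described, so in these bulk samples fewer expressing cells and less RNA per cell cannot be told apart.

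Interferons bind their receptors at the cell surface, JAK kinases then phosphorylate STAT proteins, and complexes of STAT proteins with IRF9 bind interferon-stimulated response elements (ISREs) in promoters. The products act at different points: IFITM proteins sit in membranes and hinder fusion of enveloped viruses, BST2 (tetherin) holds budding virions at the cell surface, and SAMHD1 hydrolyses the dNTPs that reverse transcription needs. APOBEC3 enzymes deaminate cytosines in viral DNA, and SAMD9 and SAMD9L restrict poxviruses.

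Estimated depth was 4.28e+06 to 7.40e+06 reads in the 7 columns that each hold 1 library, and these detected 13246 to 16089 genes. Each group was 1 library or a mean without its separate values, so no p-value is given and intervals cover counting error only. The marker genes set for each line were checked. Of the SK-N-SH markers, PHOX2A was at 34.3 and 26.8 FPKM in mock and PcTF cells of that line and listed at 0 in every other column, and HAND2 was at 35.6 and 26.4 FPKM and at most 2.24 elsewhere. Of the K562 markers, HBG2 was at 2912 and 8297 FPKM in mock and PcTF cells of that line and at most 0.54 elsewhere, and TAL1 was at 26.3 and 43.6 FPKM and at most 1.07 elsewhere. The osteosarcoma list did not single out U-2 OS, with sums of 190.2 to 307 FPKM in its single libraries against 519 and 652 in SK-N-SH, and COL1A2 was listed at 0 in every U-2 OS column. Leukocyte markers summed to 61.8 and 63.0 FPKM in K562, mostly PTPRC and LYZ, and at most 1.11 elsewhere. All 3 markers of plasmacytoid dendritic cells, the professional interferon producers, summed to at most 0.359 FPKM. CBX8, whose 5′ part is in the transgene, rose with PcTF from 1.59 to 14.3 FPKM in K562, from 0.287 to 8.85 in SK-N-SH and from 0.61 to 6.43 in U-2 OS.

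The genes lie in 5 chromosomal neighbourhoods (hg19, locus as deposited). IFITM2 (chr11:308107-309410, plus strand), IFITM1 (chr11:313991-315272, plus strand) and IFITM3 (chr11:319673-320914, minus strand) are adjacent 2-exon genes. SAMD9 (chr7:92728826-92747336) and SAMD9L (chr7:92759368-92777680) are neighbours on the minus strand. APOBEC3B (chr22:39353527-39388783), APOBEC3F (chr22:39436673-39451975) and APOBEC3G (chr22:39473010-39483748) stand in a row on the plus strand, and BST2 (chr19:17513755-17516384) and SAMHD1 (chr20:35504570-35580246) are single genes on the minus strand. The deposited APOBEC3B interval also spans APOBEC3A.

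RefSeq promoters (GRCh38.p14, 250 bases before to 50 after the start site) were found for 6 of the 10 genes: BST2, SAMD9, SAMD9L, SAMHD1, IFITM1 and IFITM3. Both strands were searched for the ISRE core, GAAA repeated after any 2 bases, and for the shorter IRF core, AANNGAAA, which every ISRE core contains. The ISRE core was present in 4 of the 6 and in 3.57% of 35116 RefSeq promoters, and the IRF core in 5 of the 6 and in 22.8% of all. The windows below are shown because they hold these matches, in capitals, and are written 5′ to 3′ on the strand of the gene with position 0 at the start site.
BST2 (chr19:17405715-17405790, minus strand, −160 to −85): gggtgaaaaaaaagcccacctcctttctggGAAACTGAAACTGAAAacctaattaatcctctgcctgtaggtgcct
SAMD9 (chr7:93118076-93118145, minus strand, −166 to −97): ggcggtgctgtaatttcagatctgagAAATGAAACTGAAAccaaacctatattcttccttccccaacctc
SAMD9L (chr7:93148394-93148461, minus strand, −76 to −9): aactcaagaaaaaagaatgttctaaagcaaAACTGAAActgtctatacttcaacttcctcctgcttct
IFITM1 (chr11:313970-314043, plus strand, −70 to 3): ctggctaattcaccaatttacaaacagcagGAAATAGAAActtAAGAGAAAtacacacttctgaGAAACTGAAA
IFITM3 (chr11:320861-320942, minus strand, −82 to −1): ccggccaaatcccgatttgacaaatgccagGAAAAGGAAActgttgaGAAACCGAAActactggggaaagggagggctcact

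BST2, IFITM1 and IFITM3 each held 2 ISRE cores, SAMD9 held 1, SAMD9L held an IRF core alone, and SAMHD1 held neither in this window. The 2 cores of BST2 overlap each other, while those of IFITM1 and IFITM3 are separate and nearer to the start site. A match is a run of letters and does not show that a factor bound there.

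**Figure D1:**
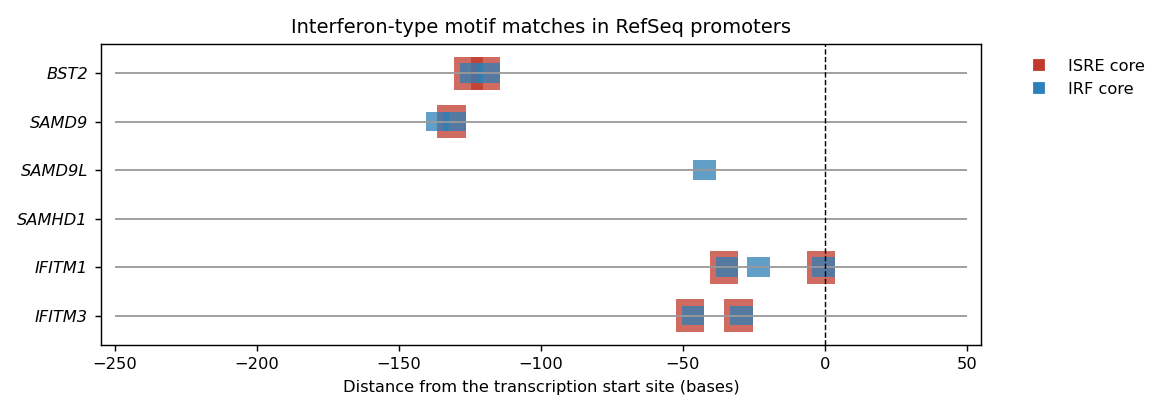
Positions of ISRE core (red) and IRF core (blue) matches in the 6 RefSeq promoters found, as distance in bases from the transcription start site (dashed line at 0). BST2 and SAMD9 hold their matches between −140 and −115, IFITM1 and IFITM3 between −52 and 3, and SAMHD1 holds none.

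The first question was how strongly these genes were expressed without PcTF. FPKM, fragments per kilobase scaled to library depth, corrects for gene length, so genes can be ordered within a library. In mock U-2 OS cells SAMHD1 (46.1 FPKM, 95% Poisson interval 43.3 to 49.0), IFITM3 (43.2, 34.4 to 53.1) and SAMD9 (38.2, 36.1 to 40.4) led. APOBEC3B (24.7) and SAMD9L (20.3) followed. BST2 (7.24), IFITM2 (4.67), IFITM1 (3.99), APOBEC3G (2.64) and APOBEC3F (2.33) closed the order. The intervals of IFITM3 reach both of its neighbours, and those of APOBEC3B and SAMD9L overlap, as do those of each neighbouring pair among the last 5, so these neighbours are not ordered beyond counting error.

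Mock SK-N-SH cells had a similar upper end, with IFITM3 at 42.3 FPKM, SAMHD1 at 40.6, SAMD9 at 27.3, IFITM2 at 18.6 and SAMD9L at 16.5, where the intervals of the first pair and of the last pair overlap. The remaining genes were low: IFITM1 was at 1.87 FPKM, APOBEC3F at 0.492, BST2 at 0.262 and APOBEC3G at 0.118, and APOBEC3B was listed at 0, where 3 reads would be 0.416 FPKM. The K562 order was different. IFITM1 stood at 1085 FPKM (1042 to 1130), against 3.99 and 1.87 in the other 2 mock libraries, followed by IFITM3 at 167 and IFITM2 at 69.4. BST2 (14.8 FPKM), SAMHD1 (13.4) and APOBEC3B (13.0) came next with overlapping intervals, then APOBEC3G (5.37) and SAMD9L (3.33), whose intervals overlap too, and SAMD9 (1.86) and APOBEC3F (0.762). The tables were normalized separately, so levels across lines stand side by side only.

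The effect of PcTF plasmid was then taken line by line, counting a gene as risen or fallen when its FPKM differed at least 2-fold. Differences are given on the log2 scale after adding 0.1 FPKM to both values. In U-2 OS, 8 of the 10 genes rose and none fell, where 13.4% of all genes rose and 9.18% fell. The median difference of the 10 genes was 1.70, against 0.09 over all detected genes.

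The IFITM genes, which act at viral entry, had the largest differences in U-2 OS. IFITM1 was at 3.99 FPKM in mock and 125 in PcTF cells, a 31.3-fold ratio (log2 difference 4.94), although the mock value rests on an estimated 9 reads and the 95% interval of the log2 read ratio, in which nothing is added, spans 4.04 to 6.13. IFITM2 was at 4.67 and 45.7 FPKM (log2 difference 3.26, interval 2.6 to 4.1). IFITM3, already abundant, was at 43.2 and 267 FPKM (2.63, interval 2.3 to 2.99). All 3 neighbours were thus higher with PcTF, and the IFITM1 and IFITM3 intervals do not overlap.

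BST2, the virion tether, was at 7.24 FPKM in mock and 21.3 in PcTF cells (log2 difference 1.54, interval 0.92 to 2.25). SAMHD1, the dNTPase, was at 46.1 and 167 FPKM (1.85, interval 1.75 to 1.96). Among the paired poxvirus factors, SAMD9L was at 20.3 and 96.3 FPKM (2.24, interval 2.13 to 2.37) and SAMD9 at 38.2 and 99.7 (1.38, interval 1.29 to 1.48). SAMD9L started below its neighbour, had the larger ratio, and ended at a level close to it.

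The APOBEC3 deaminases differed least in U-2 OS. APOBEC3G was at 2.64 and 5.44 FPKM (log2 difference 1.02, interval 0.14 to 1.94), just past 2-fold, and APOBEC3F at 2.33 and 3.54 FPKM (0.58, interval 0.04 to 1.16), short of it. APOBEC3B was at 24.7 and 17.9 FPKM (−0.47, interval −0.83 to −0.11), the only one of the 10 that was lower with PcTF.

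**Figure D2:**
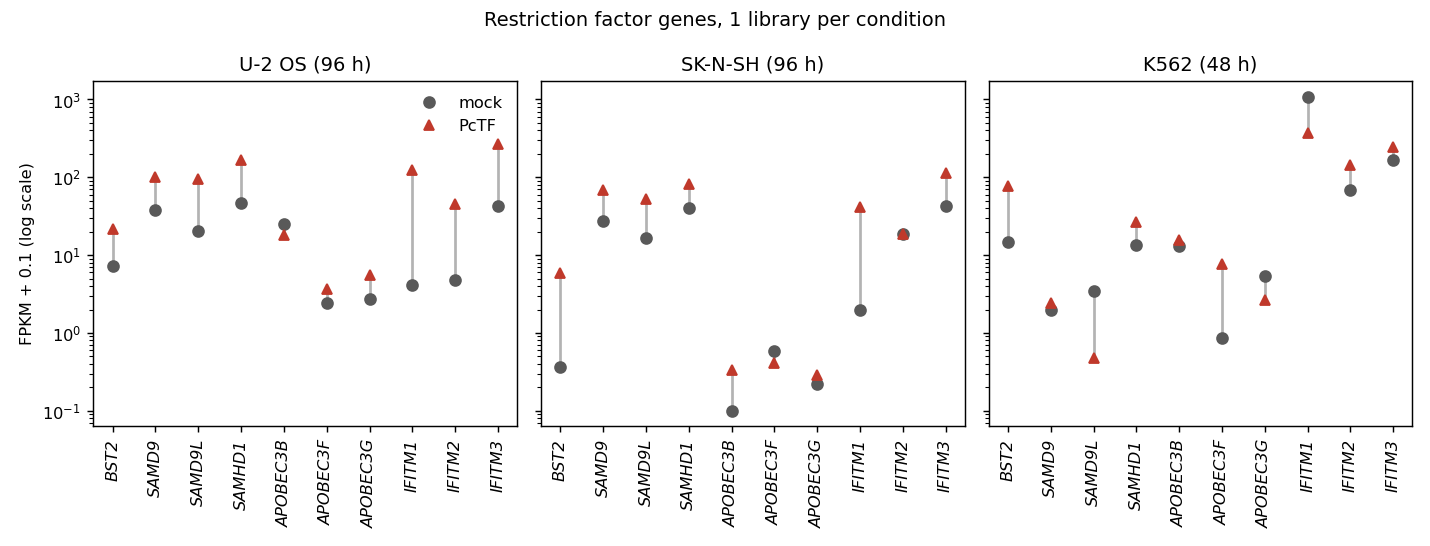
FPKM plus 0.1 (log axis) of the 10 genes in mock (grey circles) and PcTF-transfected cells (red triangles) of each line, 1 library per symbol. PcTF values lie above mock values for 9 of 10 genes in U-2 OS, while IFITM1, SAMD9L and APOBEC3G lie below in K562.

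In SK-N-SH, 7 of the 10 genes rose and none fell, with 10.3% of all genes up and 6.24% down. One of the 7, APOBEC3B, went from a listed 0 to 0.235 FPKM on an estimated 2 reads, below the level of 3 reads in the mock library, so no fold is given for it. Without it 6 rose, and the median difference over the genes with 1 FPKM or more in either library was 1.44 (1.38 over all 10, against 0.10 over all detected genes).

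IFITM1 was at 1.87 FPKM in mock and 41.7 in PcTF cells of SK-N-SH, a 22.3-fold ratio (log2 difference 4.41, interval 3.08 to 5.99), from an estimated 5 reads in mock. BST2 was at 0.262 and 5.74 FPKM (4.01), but its mock value is 1 read and the interval runs from 1.97 to 9.91. IFITM3 was at 42.3 and 115 FPKM (1.44, interval 1.1 to 1.8). IFITM2 differed from its neighbours on chromosome 11, with 18.6 and 18.4 FPKM (−0.02, interval −0.46 to 0.44), while its U-2 OS level had been 9.78-fold higher with PcTF.

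SAMD9L was at 16.5 and 52.4 FPKM in SK-N-SH (log2 difference 1.66, interval 1.54 to 1.8) and SAMD9 at 27.3 and 68.5 (1.32, interval 1.22 to 1.43). SAMHD1, at 40.6 and 81.8 FPKM (1.01, interval 0.9 to 1.12), passed the threshold narrowly with a ratio of 2.02. The deaminases were near the limit of detection in this line: APOBEC3F was at 0.492 and 0.314 FPKM (11 and 9 reads), and APOBEC3G at 0.118 and 0.192 (1 and 2 reads). A difference in APOBEC3B or APOBEC3G was not detectable at this depth. For APOBEC3F the interval of the log2 read ratio, −2.04 to 0.82, reaches both directions.

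K562 gave a mixed pattern: 4 of the 10 genes rose and 3 fell, where 24.9% of all genes rose and 9.08% fell. The median difference of the 10 genes was 0.42, against 0.47 over all detected genes, so as a group they did not stand above the rest. All genes with 1 FPKM or more in both libraries had a median shift of 0.29 in this line, against 0.09 for SK-N-SH and 0.06 for U-2 OS. After centring on it only 2 genes, BST2 and APOBEC3F, stayed past 2-fold upward.

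BST2 was at 14.8 FPKM in mock and 76.7 in PcTF cells of K562 (log2 difference 2.36, interval 1.98 to 2.81). APOBEC3F was at 0.762 and 7.6 FPKM (3.16, interval 2.6 to 4.21), a 9.98-fold ratio, although it missed the threshold in the other lines. SAMHD1 was at 13.4 and 26.8 FPKM (1.0, interval 0.81 to 1.2) and IFITM2 at 69.4 and 144 (1.05, interval 0.85 to 1.26), both just past 2-fold and both lost on centring. IFITM3 was at 167 and 246 FPKM (0.55, interval 0.36 to 0.75).

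The genes that fell in K562 include the most abundant one. IFITM1 was at 1085 FPKM in mock and 367 in PcTF cells, 2.96-fold lower (log2 difference −1.56, interval −1.66 to −1.47), the opposite direction to the other lines. SAMD9L was at 3.33 and 0.370 FPKM (−2.87, interval −3.96 to −2.46), while SAMD9 beside it was at 1.86 and 2.29 (0.29, interval −0.16 to 0.8). APOBEC3G was at 5.37 and 2.56 FPKM (−1.04, interval −1.85 to −0.27) and APOBEC3B at 13.0 and 15.5 (0.25, interval −0.13 to 0.66). The K562 PcTF library also had the greatest depth (7.40e+06 reads against 4.67e+06 in mock) and a globin gene, HBG2, at 8297 against 2912 FPKM. Their part in these differences was not tested.

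Across the lines, BST2 and SAMHD1 passed the threshold upward in all 3, and 6 genes did so in SK-N-SH as well as in U-2 OS: BST2, SAMD9, SAMD9L, SAMHD1, IFITM1 and IFITM3. After centring SAMHD1 was at 0.92 in SK-N-SH and 0.71 in K562, so it stayed past 2-fold only in U-2 OS. Without centring every one of the 10 passed it upward in at least 1 line, counting APOBEC3B on its 2 reads in SK-N-SH. The shares of all genes that passed upward in these combinations of lines were not counted here. The counts across lines therefore cannot be set against all genes. The lines were not tested against each other, since each difference rests on 1 pair of libraries.

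**Figure D3:**
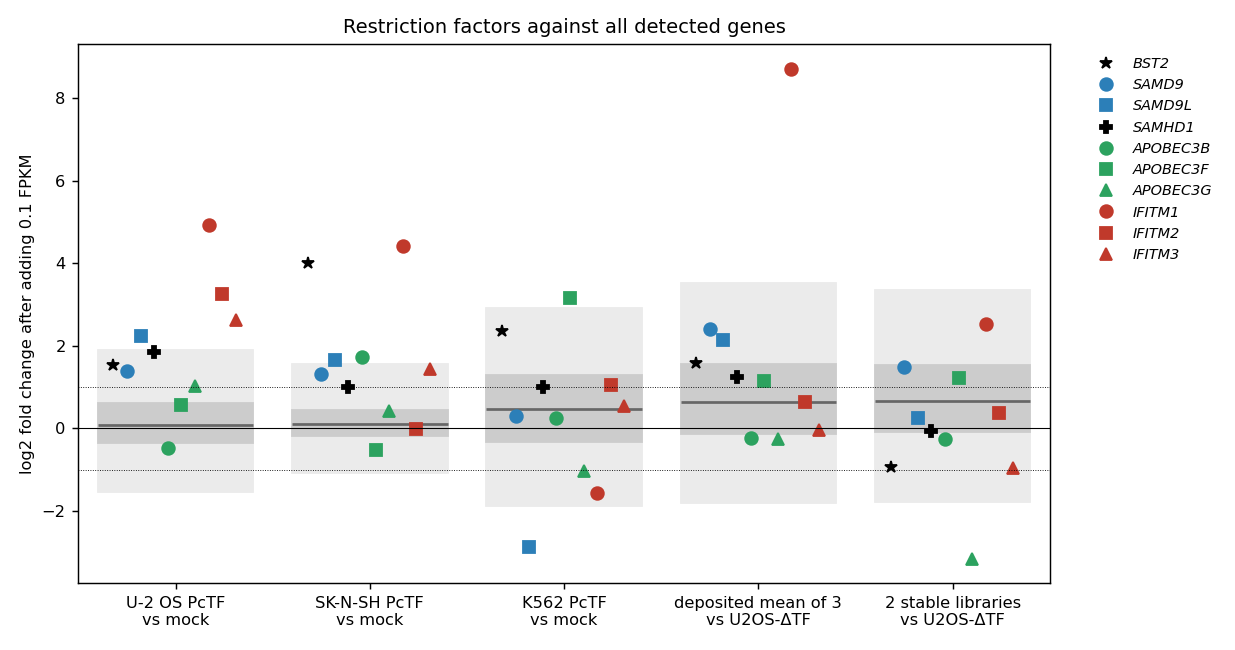
Log2 difference after adding 0.1 FPKM for the 10 genes (symbols) in 5 comparisons, over the middle 50% (dark grey) and middle 90% (light grey) of all detected genes, with their median (grey line) and the 2-fold thresholds (dotted). IFITM1 lies above the light band at 4.94 in U-2 OS cells and at 4.41 in SK-N-SH cells, and its point for the deposited mean depends on the 0.1 added to a control at 0.

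The stable lines ask whether the genes also differed when PcTF came from a chromosomal transgene, with ΔTF as control. The deposited PcTF column of that table is a mean. By the labels it holds 3 libraries, the 2 stable U2OS-PcTF libraries and the PcTF-transfected U-2 OS library, whereas the study's methods speak of 3 replicates of the stable lines. The values follow the labels: of 16049 genes detected in the transfected library, 325 equal that library divided by 3 within 0.01%, and only 10 fall short of it by over 1%. Subtraction therefore gave the mean for the stable pair. The smallest step of the deposited mean implies that at least 1 of them had about 1.45e+07 reads. CBX8 was at 1.28 FPKM in U2OS-ΔTF and 4.92 in the stable pair.

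In the deposited mean, 6 of the 10 genes were at least 2-fold above U2OS-ΔTF and none below, where 40.4% of all genes were up and 9.84% down. They were BST2, SAMD9, SAMD9L, SAMHD1, APOBEC3F and IFITM1. The median difference was 1.19, against 0.64 over all detected genes, and placing IFITM1 at its bound left it at 1.19. In the mean of the 2 stable libraries alone, 3 genes were up and 1 down (all genes: 40.5% up, 9.39% down), and the median was 0.10 against 0.66. The 3 were SAMD9, APOBEC3F and IFITM1, of which IFITM1 lies under the 3-read level of the control, so 2 remain without it. The gene below was APOBEC3G. An equal share of each library in the mean would be 33.3%, and the median over 12249 genes was 28.9% from the transfected library.

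IFITM1 shows the difference most plainly. It was listed at 0 in U2OS-ΔTF and at 42.0 FPKM in the deposited mean, at least 37.9-fold higher when the control is set to its 3-read level of 1.11 FPKM. The transfected library supplied 99.2% of that sum. The stable libraries averaged 0.476 FPKM, below the 3-read level of the control, so no fold over the control is given for them. A 3-read level of the stable libraries themselves was not estimated. Of the other entry factors, IFITM2 was at 21.6 FPKM in U2OS-ΔTF, 28.0 in the stable mean and 33.9 in the deposited mean. IFITM3 was at 142 FPKM in U2OS-ΔTF, 73.1 in the stable mean and 138 in the deposited mean.

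BST2 was at 2.58 FPKM in U2OS-ΔTF and 7.96 in the deposited mean, of which 89.0% came from the transfected library, and the stable mean was 1.31 (log2 difference from ΔTF −0.93). SAMD9L was at 8.68 and 39.0 FPKM, with 82.4% from the transfected library and a stable mean of 10.3 (0.25). SAMHD1 was at 32.2 and 76.4 FPKM, with 72.8% from the transfected library and a stable mean of 31.2 (−0.05). For these 3 genes the 2-fold excess over ΔTF was present in the deposited mean and not in the stable libraries, where BST2 lay just short of 2-fold lower.

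SAMD9 and APOBEC3F were past 2-fold in both, but APOBEC3F, at 0.83 in both after centring on the shifts of 0.31 and 0.40 over all genes, was then short of it. SAMD9 was at 9.63 FPKM in U2OS-ΔTF, 51.5 in the deposited mean and 27.5 in the stable mean (log2 difference 1.5). APOBEC3F was at 1.77, 4.02 and 4.27 FPKM (1.22), and is the only one of the 10 whose stable mean exceeded the transfected library's 3.54. APOBEC3G was at 2.33 FPKM in U2OS-ΔTF, 1.93 in the deposited mean and 0.172 in the stable mean (−3.16), with 94.0% from the transfected library. That stable mean is a small remainder of the subtraction and lies under the 3-read level of U2OS-ΔTF, 0.38 FPKM, so the size of this difference is uncertain. APOBEC3B stayed within 2-fold, at 20.6, 17.5 and 17.3 FPKM.

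The choice of control mattered too, since U2OS-ΔTF itself differed from mock U-2 OS cells without either holding PcTF. Over all genes 18.3% were 2-fold higher and 29.2% lower in U2OS-ΔTF, and of the 10 genes 2 were higher and 4 lower. IFITM2 (21.6 against 4.67 FPKM) and IFITM3 (142 against 43.2) were the higher ones. BST2 (2.58 against 7.24), SAMD9 (9.63 against 38.2) and SAMD9L (8.68 against 20.3) were lower. IFITM1, listed at 0, was at least 3.6-fold lower when set to its 3-read level of 1.11 FPKM. The mock value of 3.99 FPKM rests on an estimated 9 reads, and the interval of the log2 read ratio reaches up to −1.23. Set against mock, the 2 stable libraries had 1 of the 10 genes up, IFITM2, and 3 down, BST2, APOBEC3G and IFITM1 (all genes: 28.4% up, 9.31% down). SAMD9, 1.5 above ΔTF, lay at −0.47 against mock, because the ΔTF level was the lower of the controls.

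**Figure D4:**
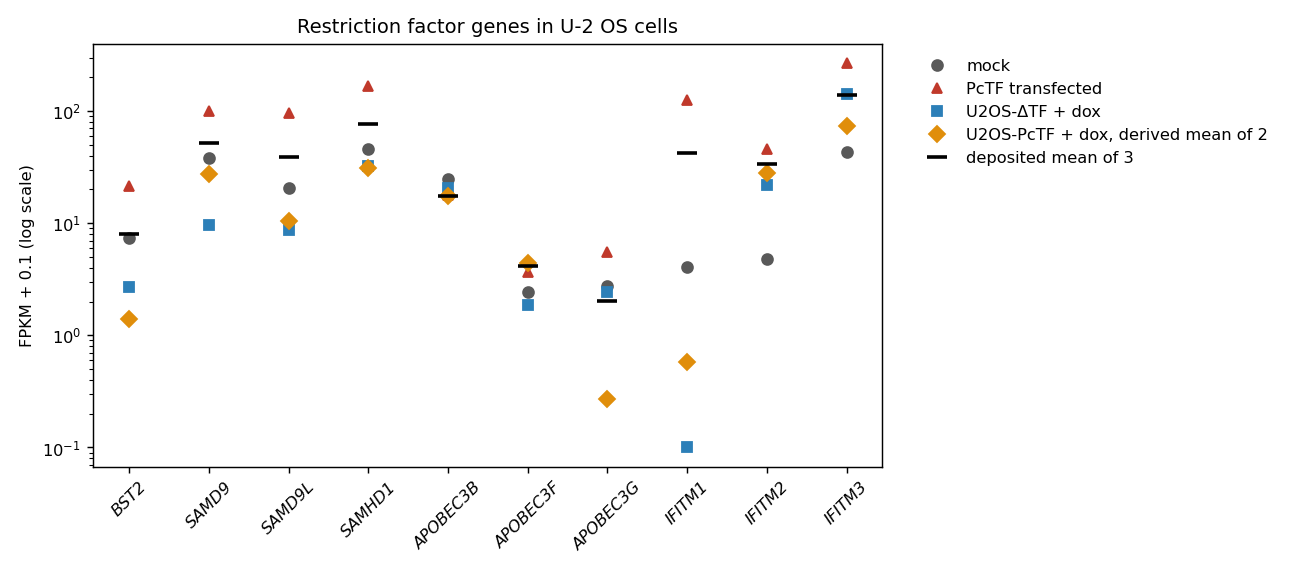
FPKM plus 0.1 (log axis) of the 10 genes in U-2 OS cells: mock (grey circles), PcTF-transfected (red triangles), U2OS-ΔTF with doxycycline (blue squares), the derived mean of the 2 U2OS-PcTF libraries (orange diamonds) and the deposited mean of 3 libraries (black bars). For IFITM1 the deposited mean of 42.0 FPKM lies between 125 in the transfected library and 0.476 in the stable mean.

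Other genes of antiviral defence were described from 2 lists, beside the same shares of all genes. Of 30 other restriction factors, 16 rose and 1 fell in U-2 OS cells, where 13.4% of all genes rose, with a median of 1.16 over the 24 at 1 FPKM or more in either library. In SK-N-SH cells 12 rose and 2 fell (0.84 over 22), where 10.3% of all rose. In K562 cells 8 rose and 4 fell (0.47 over 20), where 24.9% of all rose. The largest differences in U-2 OS were in MX2 (0.445 to 22.3 FPKM), a GTPase that blocks nuclear entry of HIV-1, GBP5 (1.28 to 40.7), RSAD2 (3.28 to 63.3), which encodes viperin, and HERC5 (1.3 to 21.7), the ISG15 ligase. In SK-N-SH they were in MX1 (0.625 to 32.9), RSAD2 (0.116 to 7.04), MX2 (listed at 0, then 3.12) and HERC5 (0.523 to 5.01). In K562, ISG20 (3.69 to 0.179) and TRIM5 (30.6 to 7.91) fell while APOBEC3D (0.557 to 2.82) and MX1 (0.402 to 2.08) rose. More of the 30 genes rose than fell in each line, but the same was true of all genes. Of all genes 9.08% fell in K562, 6.24% in SK-N-SH and 9.18% in U-2 OS. The share of the 30 that rose in K562 was near that of all genes. Of the 30, 18 did neither in K562, 16 in SK-N-SH and 13 in U-2 OS.

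In the stable comparison, where 40.4% of all genes were up, 19 of the 30 were up and 4 down in the deposited mean. The median was 1.22 over the 26 at 1 FPKM or more in either column. In the 2 stable libraries 14 were up and 5 down (0.71 over 22). Against mock the stable libraries had 8 up and 5 down (0.23 over 23), where 28.4% of all genes were up and 9.31% down. The share up is thus near that of all genes. HERC5 was at 7.24 FPKM in the deposited mean and 0 in the stable mean, and RSAD2 at 21.5 and 0.599, so for them too the deposited mean came mostly from the transfected library. APOBEC3A, which lies inside the deposited APOBEC3B interval, was at 6.29 FPKM in U2OS-ΔTF and 0 in the stable mean.

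Of 18 interferon signalling genes found, 1 rose and none fell in K562, where 24.9% of all genes rose. The median was 0.62 over the 14 of them at 1 FPKM or more in either library. In the SK-N-SH line 7 rose and 1 fell (0.66 over 14), where 10.3% of all rose. In the U-2 OS line 7 rose and none fell (0.87 over 14), where 13.4% of all rose. IRF1, a transcription factor that interferon induces, went from 1.59 to 6.68 FPKM in the U-2 OS line and from 1.09 to 4.34 in the SK-N-SH line, while K562 had 2.29 and 2.13. Among the ligands, IFNB1 was listed at 0 in all single libraries other than PcTF-transfected U-2 OS, where it was at 0.734 FPKM. The reads behind that low value were not estimated, so it may rest on very few and is not read as a rise. IL29 was listed at 0 in every column. The ligands were picked after their values were seen.

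In the stable comparison, 14 of the 18 were up and none down in the deposited mean, where 40.4% of all genes were up. The median was 1.84 over the 13 at 1 FPKM or more in either column. In the stable libraries 12 were up and none down (1.59 over 13), where 40.5% of all genes were up. IFNAR1, a receptor chain for type I interferon, was at 2.87 FPKM in U2OS-ΔTF, 19.9 in the stable mean and 18.0 in mock, and IFNAR2 at 2.84, 19.7 and 18.3. The receptor levels of the stable PcTF libraries were thus near those of mock, and the low values were those of U2OS-ΔTF. Against mock, 4 of the 18 were up and none down in the stable libraries (0.18 over 13), where 28.4% of all genes were up and 9.31% down. In U2OS-ΔTF against mock 1 was up and 10 down (−1.27 over 13), where 18.3% of all were up and 29.2% down.

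The likeness of each gene to others was measured as the root mean square distance of centred log2 levels over the 7 single libraries. The genes compared were those with 1 FPKM or more in at least 2 of these libraries. This is a description over columns that share lines and depth. The nearest gene to SAMD9L was TRIM22, another antiviral factor, at a distance of 0.64. It was at 13.8 FPKM in mock and 76.2 in PcTF cells of U-2 OS, at 15.4 and 22.9 in those of SK-N-SH, and at 0.817 and 0.0467 in those of K562. APOL1 was nearest to APOBEC3G (0.35), IFI30 to BST2 (0.85), PARP3 to SAMHD1 (0.39), RGS9 to SAMD9 (0.35), AIF1L to APOBEC3F (0.41), UGT8 to APOBEC3B (0.37), TMEM11 to IFITM2 (0.38) and CCRN4L to IFITM3 (0.36). IFITM1 had no close match among the genes compared, the nearest being SNORA71A at 1.95. Within the set, the nearest pairs were IFITM2 with IFITM3 (0.87) and SAMD9 with SAMD9L (0.90).

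Close copies limit some of these values. Of all 50-base windows of each reference transcript, the read length of the study, 34.6% of APOBEC3B, 11.6% of APOBEC3F, 13.0% of APOBEC3G, 15.8% of IFITM1, 10.0% of IFITM2 and 20.8% of IFITM3 also occur in another gene. BST2, SAMD9 and SAMD9L share none and SAMHD1 0.7%. The APOBEC3 and IFITM levels are thus less certain than those of the other 4 genes. Summing the family members among the 10, SAMD9 with SAMD9L included, gave median differences of 0.42 for K562, 1.46 for SK-N-SH and 1.74 for U-2 OS. APOBEC3A and APOBEC3D, which share the most windows with APOBEC3B, were not in the sums. These medians therefore do not address reads shared with genes outside the 10.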

How the data were processed

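RNA-seq of 10 libraries was analysed from 4 deposited tables. Of these libraries 9 were used, and the U-2 OS library labelled with the ΔTF plasmid was not analysed here. Per the submitters' processing notes, TopHat2 2.1.0 with Bowtie2 aligned 50-base single-end reads to hg19, and the authors computed FPKM values per gene with Cuffdiff. FPKM scales reads to depth and gene length. The columns of fold change, p-value and q-value in the deposited tables are the authors' own comparisons and were not used.

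A 2-fold ratio of deposited FPKM counted as a difference, without a filter, and 0.1 FPKM was added before log2. Depth was estimated from the FPKM step of single-exon genes, of 500 to 6000 bases, where 94.2% to 100% of low values were whole multiples within 3%. Reads per gene used effective lengths for fragments of 200 ± 80 bases (SD). Intervals are exact 95% binomial or Poisson intervals on estimated reads. With 1 library or 1 mean column per group no test was run. The counting code was tested on simulated data. Python 3.11.15, pandas 2.3.3 and scipy 1.17.1 were used.

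Named genes are the 10 restriction factors, up to 4 genes per list and comparison with the largest difference, the nearest gene to each of the 10, and CBX8. The 10 genes and the lists were chosen with earlier results of these data known. Alternatives were other added values, thresholds, a 1 FPKM filter, median centring, summed copies, the mean of the 2 stable libraries, and mock as control. Single values of some listed genes are not reported here.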

Additional observations from a re-analysis of the deposited data

Results flagged for a closer look

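Among the 10 genes, 3 moved past 2-fold in opposite directions with PcTF plasmid in different lines. The share of all genes that did so was not counted, so whether 3 of 10 is unusual is not known. Of all genes 24.9% rose and 9.08% fell in K562. The shares were 13.4% and 9.18% in U-2 OS, and 10.3% and 6.24% in SK-N-SH. Each direction rests on 1 library per condition, so the difference between lines was not tested. SAMD9L had a log2 difference of −2.87 in K562 but 1.66 for SK-N-SH and 2.24 for U-2 OS. IFITM1 had −1.56 in K562, where its mock level was 1085 FPKM, but 4.41 for SK-N-SH and 4.94 for U-2 OS. APOBEC3G had 1.02 in U-2 OS and −1.04 in K562. It also had −3.16 in the derived mean of the 2 stable U2OS-PcTF libraries against U2OS-ΔTF, a difference that was not tested either and that rests on a derived 0.172 FPKM, under the 3-read level of 0.38 in U2OS-ΔTF. APOBEC3G rests on estimated counts of 18 and 32 reads in U-2 OS and 34 and 26 in K562.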

How the results depend on the processing

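No paired analysis was possible because each group is 1 library or a deposited mean of libraries, and for the same reason no replicate could be left out. With a 4-fold threshold, 2 genes rose in K562, 3 in SK-N-SH, 4 in U-2 OS and 3 in the stable comparison, and 1 fell in K562. With a 1.5-fold threshold 1 gene fell in SK-N-SH. Median centring left 2 risen genes in K562 (without SAMHD1 and IFITM2), 7 in U-2 OS (without APOBEC3G, 0.96), 6 in SK-N-SH (without SAMHD1, 0.92) and 4 in the stable comparison (without SAMHD1, 0.93, and APOBEC3F, 0.83). Adding 1 FPKM left 2 fallen genes in K562. Shares of all genes were not taken at the other thresholds, with 1 FPKM added or after centring. The counts at these settings therefore cannot be set against all genes. In the stable comparison, the mean of the 2 stable libraries gave 3 risen and 1 fallen gene with a median of 0.10, and mock as control of the deposited mean gave 3 risen. Both together, chosen after seeing the data, gave 1 risen and 3 fallen genes and a median of −0.54. Among genes past 2-fold as reported, the direction reversed only in that comparison. With the stable mean BST2 was at −0.93 and SAMHD1 at −0.05. With mock as control too BST2 was at −2.38, SAMD9 at −0.47, SAMD9L at −0.97, SAMHD1 at −0.56 and IFITM1 at −2.83. By construction these settings leave out the transfected library or replace U2OS-ΔTF. The other 63 values for counts and medians and 122 for single genes moved by at most 1.5 times (0.58 on the log2 scale for medians and single genes). A further 21 for single genes moved more and were not counted as reversed. Genes within 2-fold as reported could change sign without being counted. IFITM3 in the stable comparison went from −0.04 to 1.67 with mock as control and 0.76 with the stable mean too. APOBEC3B in K562 went from 0.25 to −0.03 after centring. Depth limits APOBEC3B and APOBEC3G in SK-N-SH, both at 2 reads or fewer, and BST2 in mock SK-N-SH cells, at 1 read.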
